A study of Mus musculus with 24 samples.

Results

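A set of 10 enzymes that use manganese, or belong to pathways of enzymes that do, was followed on 24 gene expression arrays: the arginases Arg1 and Arg2, glutamine synthetase (Glul), pyruvate carboxylase (Pcx), the mitochondrial phosphoenolpyruvate carboxykinase (Pck2), the galactosyltransferases B4galt1 and B4galt5, the N-acetylglucosaminyltransferases Mgat1 and Mgat2, and the O-GlcNAc transferase Ogt. The members were taken by gene symbol, with older aliases accepted, and all 10 of 10 had at least 1 probe among the 19057 annotated genes of the array. They held 18 annotated probes, and 1 further probe (ILMN_2548594) carried an older alias of Pck2. A gene was tested where its brightest probe lay above the background of at least 6 of the 24 arrays, which left 6 of the 10 members among 13867 tested genes.

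The cells were BALB/3T3 clone A31, a fibroblast line derived as 1 clone from BALB/c mouse embryos, and all groups used this line. For 24 h they grew under tissue culture inserts that held metal powder, so that the metal lay above the cell layer. The 4 groups of 6 arrays were a control without metal, pure iron at 3.25 mg/ml, pure manganese at 0.5 mg/ml and Fe-35Mn powder, an alloy of iron with manganese, at 5 mg/ml. The titles call the replicates technical, so the p-values reported here speak of variation among arrays that may be technical only.

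Manganese is a cofactor that enzymes of several compartments bind. Arginase carries a pair of manganese ions in its active site and splits arginine into ornithine and urea. Pyruvate carboxylase makes oxaloacetate from pyruvate in the mitochondrion, and Pck2 turns oxaloacetate into phosphoenolpyruvate there; glutamine synthetase joins ammonia to glutamate. In the Golgi, Mgat1 and Mgat2 start the antennae of N-glycans, and B4galt1 and B4galt5 add galactose, each with manganese bound beside the sugar nucleotide. Ogt differs from them: it puts single N-acetylglucosamine residues on nuclear and cytosolic proteins and belongs to a glycosyltransferase fold that needs no metal ion.

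The promoter windows of the 4 members that passed a test are shown here, because these were the genes whose RNA level differed between groups. RefSeq's GRCm38.p6 table gave 250 bases before and 50 after the annotated start for 8 of the 10 members, in 12 windows. Capitals mark matches, on either strand, to the GC box GGGCGG, which was added after the windows were read, or to the hypoxia element ACGTG. The windows lie at chr4:40853935-40854234 (minus strand) for B4galt1, chr2:167349129-167349428 (minus strand) for B4galt5, chr19:4510222-4510521 (plus strand) for the first Pcx start and chrX:101639801-101640100 (plus strand) for the first Ogt start, and each is written 5′ to 3′ along its gene.
B4galt1: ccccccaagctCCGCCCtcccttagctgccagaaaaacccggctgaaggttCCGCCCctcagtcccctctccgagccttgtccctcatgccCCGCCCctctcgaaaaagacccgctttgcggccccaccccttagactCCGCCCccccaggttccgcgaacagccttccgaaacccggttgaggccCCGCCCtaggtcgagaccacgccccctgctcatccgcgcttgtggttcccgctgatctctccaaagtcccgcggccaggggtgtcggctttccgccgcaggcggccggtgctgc
B4galt5: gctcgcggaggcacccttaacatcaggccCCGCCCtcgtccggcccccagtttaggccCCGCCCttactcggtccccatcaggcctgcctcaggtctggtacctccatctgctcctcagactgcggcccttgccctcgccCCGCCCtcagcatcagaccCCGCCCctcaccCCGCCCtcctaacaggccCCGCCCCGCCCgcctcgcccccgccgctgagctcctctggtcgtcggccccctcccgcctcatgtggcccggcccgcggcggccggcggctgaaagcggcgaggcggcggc
Pcx: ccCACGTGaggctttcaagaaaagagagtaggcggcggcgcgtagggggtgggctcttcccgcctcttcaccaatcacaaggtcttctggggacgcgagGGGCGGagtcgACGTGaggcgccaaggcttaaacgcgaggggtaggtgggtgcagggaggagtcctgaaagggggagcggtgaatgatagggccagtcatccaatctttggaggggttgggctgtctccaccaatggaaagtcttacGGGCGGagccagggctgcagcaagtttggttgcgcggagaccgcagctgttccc
Ogt: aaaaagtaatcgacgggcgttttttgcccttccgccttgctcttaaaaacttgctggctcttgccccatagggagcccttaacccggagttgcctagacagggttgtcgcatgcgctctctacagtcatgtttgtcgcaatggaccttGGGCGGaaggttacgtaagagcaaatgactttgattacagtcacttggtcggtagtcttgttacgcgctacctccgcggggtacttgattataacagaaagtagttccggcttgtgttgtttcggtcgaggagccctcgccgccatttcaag

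The 2 galactosyltransferase windows were rich in GC boxes, an element added after the windows were read, so the shares are descriptions. The B4galt1 window held 5 and the B4galt5 window 7, numbers that 2.71% and 0.627% of all 32851 windows reached or passed, while 35.7% of windows held at least 1. Their GC contents were 68.3% and 75%, against a median of 52.7% over all windows. The Pcx window held 2 GC boxes and 3 hypoxia matches, of which 2 overlap as the 2 strands of 1 palindrome, and 19.6% of windows held at least 1 hypoxia match. The Ogt window held 1 GC box and had 51% GC. The other elements searched on both strands were the C/EBP-ATF element TGATGNAA (in 3.97% of all windows), the antioxidant element TGACNNNGC (12.4%) and the interferon element GAAANNGAA (8.56%). None of these letters occurred in the 4 printed windows. Among the other members' windows, that of Pck2 held 1 C/EBP-ATF match and that of Glul 1 interferon match. GC boxes occurred in members that passed no test as well. Windows 1 and 3 of Mgat1 and the window of Mgat2 held 3 each, a number that 10.7% of all windows reached or passed. The Pck2 window held 2 and the Glul window 1. A match here is a description of the letters and not a binding site.

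Over all arrays the median probe intensity was 61.6 to 75.3, and 37.5% to 45.4% of the probes lay above an array's background, whose threshold was an intensity of 70.9 to 86.3. The first principal component, with 75.3% of the variance, placed the control and iron arrays between -26.5 and -25.0, the manganese arrays between 22.3 and 26.8 and the alloy arrays between 9.51 and 48.7. Alloy replicates 1, 3 and 4 held the 3 highest scores, 27.4 to 48.7, the lowest of them next to the manganese range, and replicates 2, 5 and 6 lay at 9.51 to 19.1, so no wide gap sets the 3 apart. Values without them are given because earlier results of these data had singled them out. The typical gene varied more among alloy arrays (median SD 0.144 log2) than within the other groups (0.0763 to 0.0837). Of 8 fibroblast markers 7 were above background on all 24 arrays, and Col1a1, with 1 probe, was above it on 0. The summed intensity of the fibroblast markers was 24806 to 29578 in control, 26476 to 31369 with iron, 17694 to 19161 with manganese and 11806 to 22343 with the alloy. Of 4 epithelial markers, Krt8 was above background on 24 arrays and Cdh1 on 22, and Epcam and Krt18 on 0. Of 4 endothelial markers, Cdh5 was above it on 11 arrays, Tek on 7, Pecam1 on 3 and Kdr on 0, and the median Tek intensity was 65.3 in control, 67.5 with iron, 81.7 with manganese and 83.0 with the alloy. Of 3 leukocyte markers with a probe (Cd68 had none), Csf1r was above it on 4 arrays and Ptprc and Adgre1 on 0, and all 4 hepatocyte markers, Alb among them, were at 0 arrays. The part of these marker shifts in the results below was not tested.

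With manganese, B4galt1 and B4galt5 rose and Pcx fell, while Ogt, Mgat1 and Arg1 did not pass the test. With the alloy, B4galt1 rose and Ogt fell. With iron no member passed. These calls rest on the brightest probe of each gene. The second probes of B4galt1 and B4galt5 did not pass with manganese or the alloy. Of the other Ogt probes, ILMN_2448404 rose by 0.76 log2 with manganese and 0.41 with the alloy (limma adjusted p = 9.35e-08 and 0.00720), while the rest fell with the alloy. Of the 6 tested members, 2 rose with manganese where 28.9% of all tested genes did, and 1 fell where 30.7% did (limma, Benjamini-Hochberg adjusted p under 0.05). With the alloy 1 rose (22.7% of all genes) and 1 fell (25.2%). The median change of the 6 members was +0.04 log2 with manganese and +0.01 with the alloy, against -5.69e-05 and -0.0064 over all tested genes. The median size of the members' changes was 0.12 and 0.093 log2, and that of all genes 0.16 and 0.17. In these bulk RNA samples a smaller share of cells that carry an RNA and less of it per cell cannot be told apart. The manganese, iron and alloy comparisons share the same 6 control arrays.

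**Figure D1:**
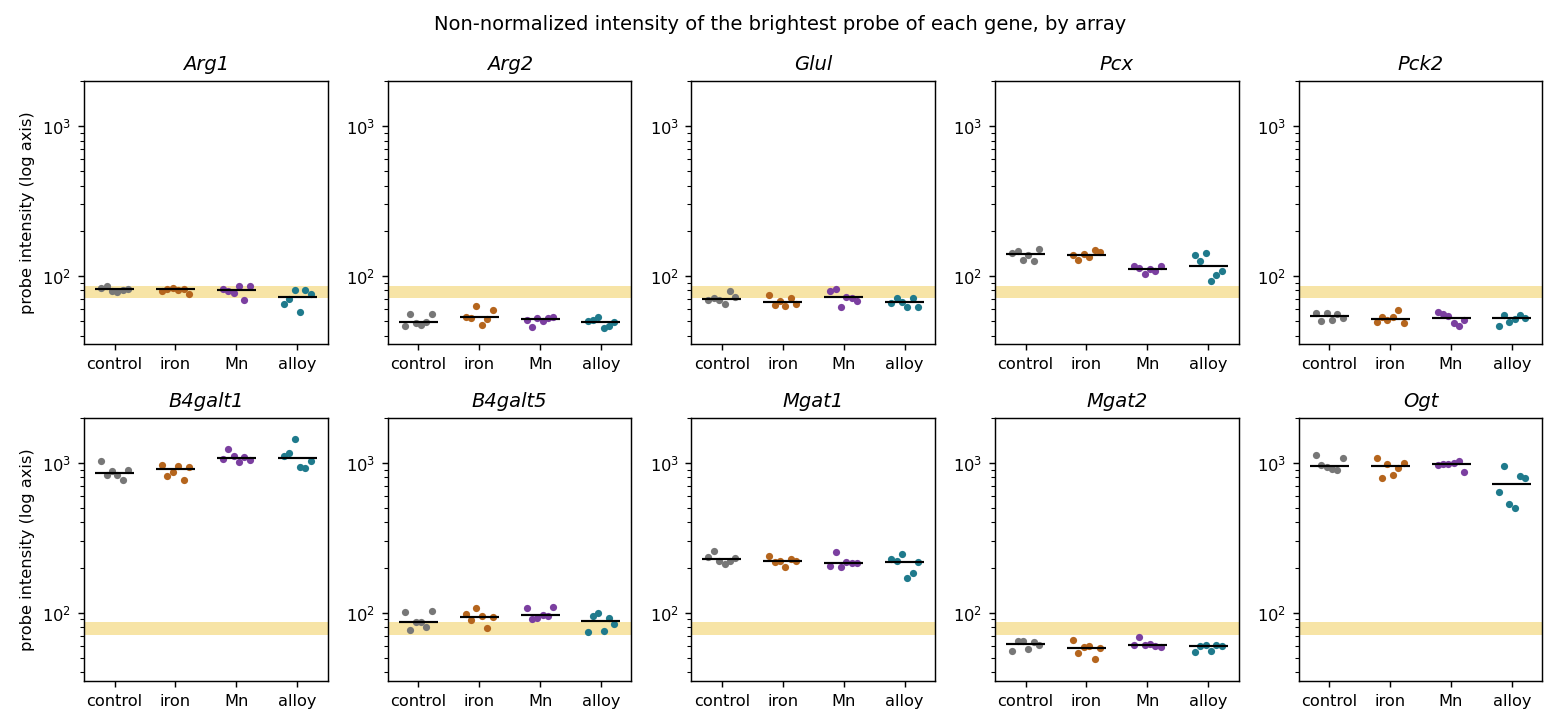
Non-normalized intensity (log axis) of the brightest probe of each of the 10 genes, with 1 point per array, 6 per group, and a bar at the group median; the yellow band is the range of the arrays' background thresholds, 70.9 to 86.3. Arg2, Glul, Pck2 and Mgat2 lie in or under the band, and B4galt1, Ogt, Mgat1 and Pcx lie above it in every group.

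B4galt1, the galactosyltransferase that finishes N-glycan antennae and, with alpha-lactalbumin, makes lactose in the mammary gland, rose with manganese and the alloy by its brighter probe. This probe (ILMN_2554782) read intensities of 769 to 1023 in control (median 860), 769 to 965 with iron (median 903), 1018 to 1233 with manganese (median 1073) and 927 to 1436 with the alloy (median 1071). After normalisation the log2 levels were 9.58 to 9.84 in control and 9.63 to 9.86 with iron. They were 10.00 to 10.24 with manganese and 9.86 to 10.65 with the alloy. Every manganese and alloy array lay above every control array on the normalised scale, whereas the non-normalized intensities of the groups overlapped. The highest alloy level, 10.65, was that of replicate 4, whose non-normalized intensity of 938 lay within the control range. This array had the lowest median intensity of all arrays (61.6) and the smallest share of probes above background (37.5%). The part of this in the alloy change was not tested. Groups without overlap were common on the normalised scale: 41.1% of all tested genes had them with manganese and 31.9% with the alloy.

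The B4galt1 probe rose by 0.38 log2 with manganese (SE 0.0495, 1.30-fold, limma adjusted p = 1.33e-06), higher in 6 of 6 arrays than any control. It rose by 0.51 with the alloy (SE 0.109, 1.43-fold, adjusted p = 0.00136), and by 0.43 to 0.59 when single arrays were left out. Without alloy replicates 1, 3 and 4 the alloy change was 0.31 (adjusted p = 0.00104), and in the authors' normalized probe table the changes were 0.23 with manganese and 0.33 with the alloy. The alloy and manganese groups differed by 0.13 (95% interval -0.10 to 0.37, adjusted p = 0.527), at doses that differ. Iron differed from control by 0.03 (interval -0.07 to 0.14, adjusted p = 0.772). In order, alloy and manganese stood highest and did not differ beyond their spread, and neither did iron and control below them.

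The dimmer B4galt1 probe (ILMN_2667369) lay close to background. Its intensities were 81.7 to 98.8 in control, 83.1 to 95.2 with iron, 83.0 to 91.0 with manganese and 79.6 to 93.6 with the alloy. It was just over the threshold on all 24 arrays, and the part of this in its smaller change was not tested. The dimmer probe differed from control by 0.01 log2 with manganese (limma adjusted p = 0.848) and 0.08 with the alloy (adjusted p = 0.165). Its change with manganese was below that of the brighter probe (difference -0.37, exact permutation test, p = 0.00216). For the alloy the difference was -0.43 (exact p = 0.00649). After adjustment over 24 such tests of probes these p-values were 0.0173 and 0.0390. The annotation ties the brighter probe to the cDNA clone record AK029474 and the dimmer one to the RefSeq transcript NM_022305. With the mean of both probes the gene rose by 0.19 with manganese and 0.30 with the alloy, still past the test.

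**Figure D2:**
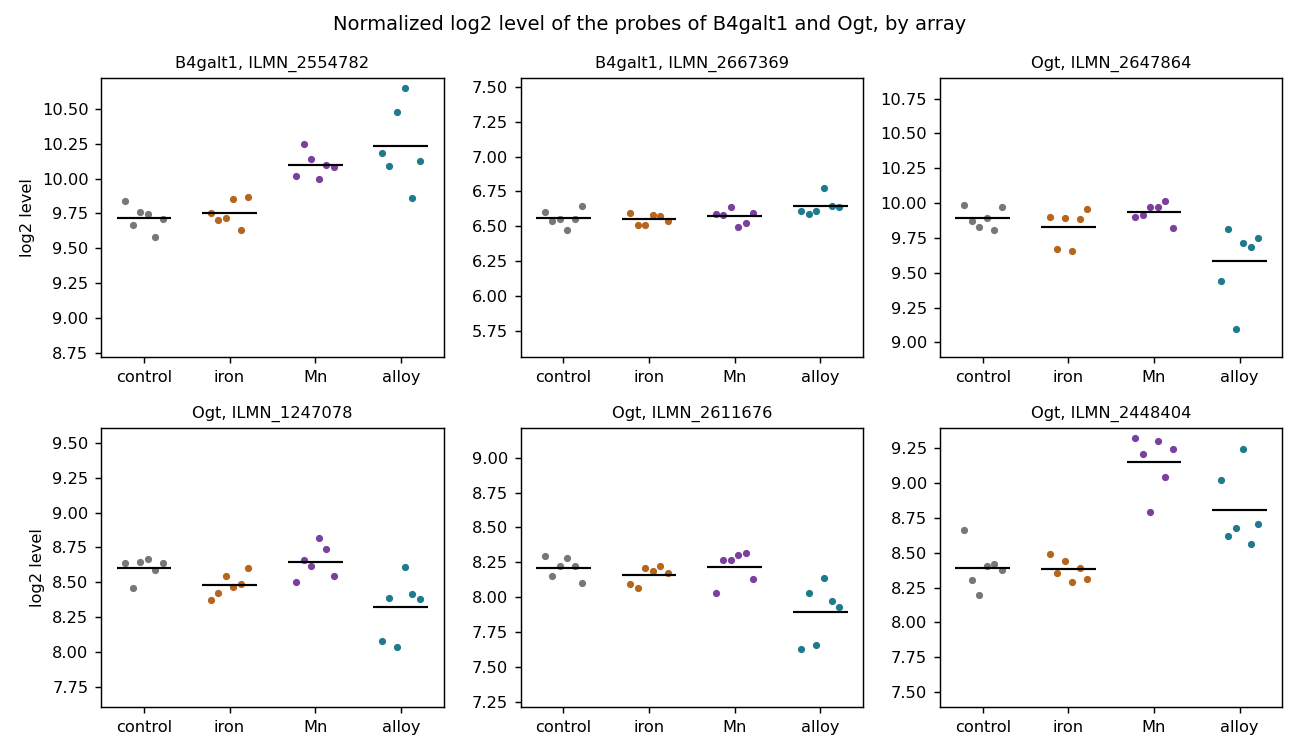
Normalised log2 level of the 2 probes of B4galt1 and the 4 probes of Ogt, with 1 point per array, 6 per group, and a bar at the group mean; each panel spans the same range of log2 units. The first B4galt1 probe and the last Ogt probe rise with manganese, and the other 3 Ogt probes fall with the alloy.

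B4galt5 adds galactose to glucosylceramide, making lactosylceramide, the base of most glycosphingolipids. Its probe ILMN_1220235 lay near background, above it on 4 of 6 control, 6 of 6 iron, 6 of 6 manganese and 5 of 6 alloy arrays. Intensities were 76.3 to 102 in control (median 86.5), 79.5 to 108 with iron (median 94.1), 90.2 to 108.975 with manganese (median 96.0) and 74.6 to 99.2 with the alloy (median 88.0). The manganese arrays were the highest group but overlapped with control. On the normalised scale the manganese group was 0.20 log2 higher (SE 0.0609, 1.15-fold, limma adjusted p = 0.00824), and without normalisation between arrays the change was 0.15 and no longer passed (adjusted p = 0.0598). In the authors' normalized probe table it was 0.02 (adjusted p = 0.0495).

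Neither iron (0.10, 95% interval -0.03 to 0.22) nor the alloy (0.08, interval -0.07 to 0.24) moved B4galt5 past the test, with adjusted p = 0.412 and 0.367. A second probe (ILMN_2641660), above background on 17 arrays, gave 0.06 with manganese (adjusted p = 0.218), -0.13 with the alloy (adjusted p = 0.0795) and -0.11 with iron (adjusted p = 0.234), the last 2 opposite in sign to the first probe. The probes' changes with manganese did not differ past the exact permutation test (difference -0.13, p = 0.121, 0.364 after adjustment over 24 such tests of probes). For iron the difference was -0.21 (exact p = 0.0498, adjusted 0.239).

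Mgat1 transfers the first N-acetylglucosamine that turns an oligomannose glycan into a hybrid or complex one. Its brighter probe (ILMN_2667234) read 211 to 257 in control (median 227), 202 to 239 with iron (median 220.0), 202 to 254 with manganese (median 214) and 169 to 248 with the alloy (median 219). The 4 groups overlapped. The change was 0.03 with manganese (95% interval -0.08 to 0.14, adjusted p = 0.613), 0.09 with the alloy (interval -0.09 to 0.26, adjusted p = 0.414) and -0.02 with iron (interval -0.12 to 0.07, adjusted p = 0.840). With median scaling both signs turned, to -0.06 with manganese and -0.07 with the alloy, so no direction is given. A second probe (ILMN_3058137), above background on all arrays, gave -0.09 with manganese (adjusted p = 0.155) and -0.13 with the alloy (adjusted p = 0.0729). Mgat2, which starts the opposite antenna, was not well above background on any array, with intensities of 49.2 to 68.4 over the 4 groups.

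Ogt, the only transferase that attaches O-GlcNAc inside the nucleus and cytosol, gave 2 different pictures. Its brightest probe (ILMN_2647864) read 899 to 1135 in control (median 948), 791 to 1074 with iron (median 955), 869 to 1035 with manganese (median 983) and 503 to 957 with the alloy (median 719). Normalised levels were 9.81 to 9.99 in control, 9.82 to 10.02 with manganese and 9.10 to 9.82 with the alloy. The alloy arrays were the lowest group: the highest of them reached just past the lowest control array and stayed under the lowest manganese array.

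The brightest Ogt probe fell by 0.31 log2 with the alloy (SE 0.103, 1.24-fold, limma adjusted p = 0.0217). On the normalised scale alloy replicate 3 was lowest at 9.10. Before normalisation replicate 4 was the lowest, at an intensity of 503, and after it this array stood at 9.71. Without replicates 1, 3 and 4 the change of this probe was -0.15 (adjusted p = 0.0394). With manganese it differed from control by 0.04 (95% interval -0.05 to 0.13, adjusted p = 0.466) and with iron by -0.07 (interval -0.18 to 0.05, adjusted p = 0.566). Against manganese the alloy arrays were 0.35 lower without overlap, and 3.40% of all tested genes had no overlap in this comparison. The Ogt difference missed the threshold (interval -0.57 to -0.13, limma adjusted p = 0.0745). Without alloy replicate 3 the difference was -0.25 and passed (adjusted p = 0.0380).

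The other 2 probes of the RefSeq transcript NM_139144 read likewise. ILMN_2611676 fell with the alloy by 0.32 (adjusted p = 0.00549) and ILMN_1247078 by 0.29 (adjusted p = 0.0145), and with manganese they differed from control by 0.01 (adjusted p = 0.943) and 0.04 (adjusted p = 0.549). Without alloy replicates 1, 3 and 4 their changes were -0.24 (adjusted p = 0.00192) and -0.21 (adjusted p = 0.00459).

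The fourth Ogt probe (ILMN_2448404) rose instead. The array calls it SCL0002975.1_346, and the platform annotation, which can be old, assigns it to Ogt through the cDNA clone record AK088505. Its intensities were 301 to 453 in control (median 337), 320 to 400 with iron (median 326), 428 to 640 with manganese (median 588) and 366 to 468 with the alloy (median 381). After normalisation every manganese array, at 8.79 to 9.32, lay above every control array, at 8.20 to 8.66. With manganese 41.1% of all tested genes likewise had groups without overlap, in either direction. Alloy replicate 4 had the lowest non-normalized intensity of the alloy arrays, 366, but the highest normalised level among them, 9.24.

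The fourth probe was 0.76 log2 higher with manganese (SE 0.082, limma adjusted p = 9.35e-08) and 0.41 higher with the alloy (SE 0.112, adjusted p = 0.00720). Without alloy replicates 1, 3 and 4 the alloy change was 0.24 (adjusted p = 0.0184), and these alloy arrays then lay 0.52 under manganese (adjusted p = 0.00256). Over 20 alternatives for this probe the alloy change ran from 0.18 to 0.46 with adjusted p up to 0.163, and over 19 the manganese change ran from 0.67 to 0.83 with adjusted p up to 6.36e-07. Its change exceeded that of the brightest Ogt probe by 0.72 log2 with manganese and by 0.72 with the alloy (exact permutation test, p = 0.00216 each, the smallest that 6 against 6 arrays can give, and 0.0173 after adjustment over the 24 tests). When all 4 probes were averaged, Ogt rose with manganese by 0.21 (adjusted p = 0.000269) and was no longer called with the alloy (-0.13, adjusted p = 0.189).

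**Figure D3:**
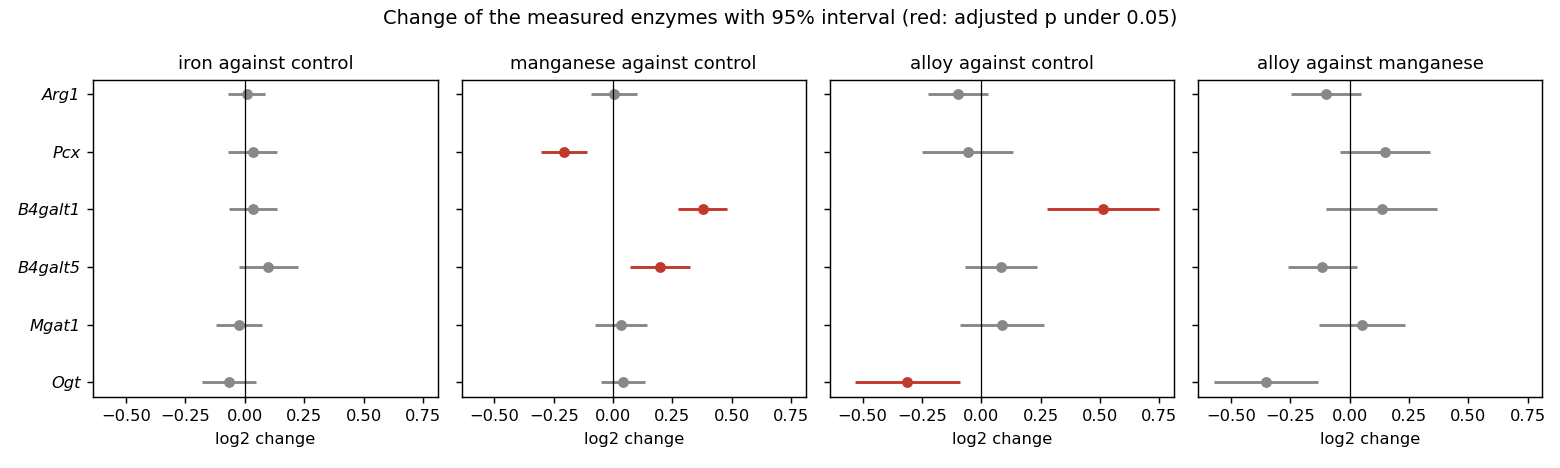
Log2 change of the 6 tested genes in 4 comparisons, with the point at the limma estimate, the line its 95% interval, and red where the adjusted p was under 0.05. Pcx, B4galt1 and B4galt5 are red with manganese, B4galt1 and Ogt with the alloy, and no gene is red with iron or between alloy and manganese.

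Pcx, the entry of pyruvate carbon into the oxaloacetate pool, was the metabolic enzyme that changed. Its probe ILMN_2748361 read 125.9 to 150.3 in control (median 140.3), 126.8 to 149.6 with iron (median 139.0), 102.8 to 117.1 with manganese (median 111.8) and 92.3 to 142.3 with the alloy (median 117.2). The manganese arrays lay lowest: their non-normalized intensities stayed under every control array, and on the normalised scale, at 6.81 to 7.02 against 7.02 to 7.21, the groups met at 1 edge. Pcx fell by 0.21 log2 with manganese (SE 0.0462, 1.15-fold, limma adjusted p = 0.000618). In the authors' normalized probe table the fall was 0.03 (adjusted p = 0.00212).

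With the alloy Pcx differed from control by -0.06 (95% interval -0.25 to 0.13, adjusted p = 0.640), and alloy replicates 1 and 3, at 7.34 and 7.29, stood over every control array. Without alloy replicates 1, 3 and 4 it fell by 0.22 (adjusted p = 0.0103). With iron it differed by 0.03 (interval -0.07 to 0.14, adjusted p = 0.781). The second Pcx probe (ILMN_2427206) was not well above background on any array, at intensities of 43.4 to 55.5.

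Arg1, the cytosolic arginase of the urea cycle in liver, stayed at the edge of detection. Probe ILMN_2775157 was above background on 4 control, 4 iron, 2 manganese and 1 alloy arrays of 6 each, with intensities of 78.6 to 85.5, 75.3 to 83.3, 69.2 to 86.0 and 57.4 to 81.0. The groups overlapped on the normalised scale and no comparison passed (0.00 with manganese, adjusted p = 0.976; -0.10 with the alloy, adjusted p = 0.189; 0.01 with iron, adjusted p = 0.946). The second Arg1 probe (ILMN_2952275) was not well above background on any array.

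The remaining metabolic members had no level to compare. Arg2, the mitochondrial arginase, read 44.9 to 62.9 over all groups and was not well above background on any array. Glul, which makes glutamine, read 62.0 to 82.0 and exceeded the threshold on 1 array, in the manganese group. Pck2 read 46.4 to 59.4, on 0 arrays above background, and its alias probe read 60.5 to 81.6, above it on 3 of 24. No fold is given for these genes.

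In the iron comparison, where 0.75% of all tested genes rose and 1.49% fell, 0 of the 6 members passed limma's adjusted threshold. At an unadjusted p under 0.05 there were 0 members, beside 2476 of all 13867 tested genes. Among the brightest probes the widest change was that of B4galt5, 0.10 log2; of the other probes, the second B4galt5 probe gave -0.11 and Ogt's ILMN_1247078 -0.12 (adjusted p = 0.161). Between alloy and manganese, where 1.82% of genes were higher and 2.14% lower with the alloy, 0 of 6 members passed. At an unadjusted p under 0.05 there was 1 member (Ogt), beside 2766 of all 13867 tested genes.

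The genes around these enzymes were described in 8 lists with 82 tested genes. With manganese 26 of the 82 rose and 33 fell, beside 28.9% and 30.7% of all tested genes. With the alloy 21 rose and 25 fell, beside 22.7% and 25.2%, so the shares that rose lay near those of all genes. With iron 0 passed limma's adjusted threshold. At an unadjusted p under 0.05 there were 12 of the 82, beside 2476 of all 13867 tested genes. Their median size of change was 0.24 log2 with manganese, against 0.16 for all genes. The lists were drawn up with results of these data known, so their counts are descriptions, and each is to be read against these shares of all tested genes.

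**Figure D4:**
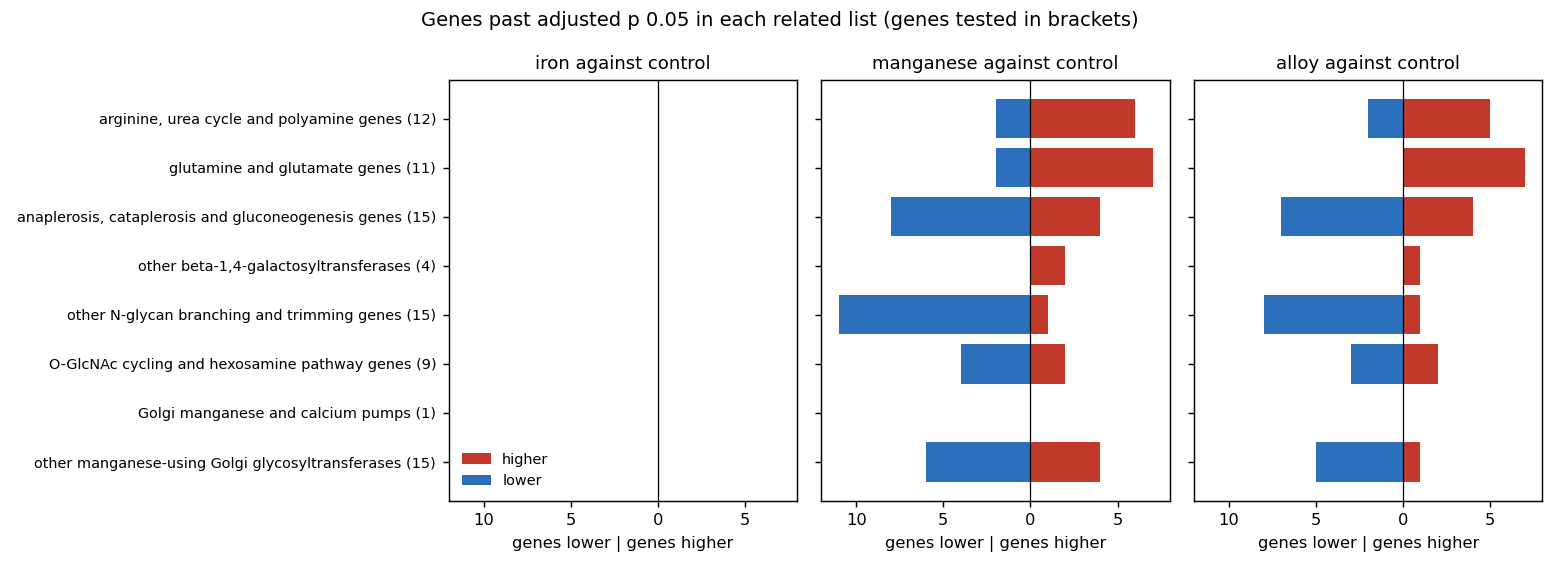
Number of genes past an adjusted p of 0.05 in each of the 8 related lists (tested genes in brackets), with bars to the right for higher and to the left for lower than control, in the iron, manganese and alloy comparisons. With iron no bar appears; the N-glycan list has 11 of 15 genes lower with manganese, and the glutamine and glutamate list 7 of 11 higher.

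Around the Golgi members, the N-glycan trimming and branching genes were mostly lower. Of 15 tested, 11 fell with manganese (30.7% of all tested genes did) and 1 rose (28.9%), and with the alloy 8 fell (25.2%) and 1 rose (22.7%), with medians of -0.20 and -0.25 log2. St3gal4, which caps galactose with sialic acid, fell by 0.69 with manganese and by 0.78 with the alloy (adjusted p = 1.03e-10 and 4.11e-05), and in the authors' normalized probe table by 0.16 and by 0.18. Man2a2, a mannosidase acting after Mgat1, fell by 0.60 and by 0.50 (adjusted p = 1.96e-09 and 0.000165), and with the mean of its probes by 0.30 and by 0.15. Without alloy replicates 1, 3 and 4, 7 of the 15 fell with the alloy, and the share of all genes in that fit is not given here.

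Of the other beta-1,4-galactosyltransferases, 4 of 5 were tested, and 2 rose with manganese (28.9% of all tested genes) and 1 with the alloy (22.7%). B4galt3 rose by 0.51 with manganese and 0.65 with the alloy (adjusted p = 1.27e-08 and 0.000491), and in the authors' normalized probe table by 0.28 and 0.38. B4galt7, which builds the linker of proteoglycans, rose by 0.19 with manganese (adjusted p = 0.00137; 0.05 in the authors' normalized probe table) and gave 0.13 with the alloy (adjusted p = 0.0611); without alloy replicates 1, 3 and 4 it gave 0.14 and passed (adjusted p = 0.0443). B4galt2 (-0.11 and -0.01) and B4galt6 (-0.10 and -0.09) did not pass with either metal.

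Of the other manganese-using Golgi transferases, 15 of 22 were tested: 4 rose and 6 fell with manganese, and 1 rose and 5 fell with the alloy (2 and 5 without alloy replicates 1, 3 and 4). Of all tested genes 28.9% rose and 30.7% fell with manganese and 22.7% rose and 25.2% fell with the alloy, so with manganese the count that rose was near the share of all genes. Ext1, a heparan sulfate polymerase, fell by 0.61 with manganese and by 0.59 with the alloy (adjusted p = 5.46e-07 and 0.000161). Galnt10, which starts mucin-type O-glycans, fell by 0.52 and by 0.61 (adjusted p = 3.10e-08 and 3.59e-05). Of the Golgi manganese and calcium pumps 1 of 3 was tested: Atp2c1, which loads the Golgi with manganese, differed from control by -0.10 with manganese (adjusted p = 0.134) and -0.12 with the alloy (adjusted p = 0.158).

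Around Ogt, 9 genes of O-GlcNAc cycling and hexosamine supply were tested; 2 rose and 4 fell with manganese, and 2 rose and 3 fell with the alloy. Beside 28.9% and 30.7% of all tested genes with manganese and 22.7% and 25.2% with the alloy, the counts that rose were near background. Gnpda1, which feeds glucosamine 6-phosphate back to glycolysis, rose by 0.76 and 0.73 (adjusted p = 4.07e-10 and 3.58e-06). Slc35a2, the Golgi UDP-galactose transporter that supplies the galactosyltransferases, fell by 0.37 and by 0.43 (adjusted p = 1.35e-07 and 3.87e-06), and in the authors' normalized probe table by 0.20 and by 0.24. Oga, which removes O-GlcNAc, differed by 0.11 with manganese and -0.05 with the alloy and passed neither test.

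Around the metabolic members, 7 of 11 glutamine and glutamate genes rose with manganese (28.9% of all tested genes) and 2 fell (30.7%), and with the alloy 7 rose (22.7%) and 0 fell (25.2%), with medians of 0.40 and 0.55. Gpt2, the mitochondrial alanine aminotransferase, had the widest change, 1.98 with manganese and 1.89 with the alloy (adjusted p = 3.52e-17 and 6.60e-09). Aldh18a1, which turns glutamate toward proline and ornithine, rose by 0.96 and 1.10 (adjusted p = 2.82e-13 and 8.13e-07). Of 12 arginine, urea cycle and polyamine genes 6 rose and 2 fell with manganese, and 5 rose and 2 fell with the alloy, beside the same shares. Ass1, which rebuilds arginine from citrulline, rose by 0.70 and 1.10 (adjusted p = 2.10e-09 and 7.36e-06), and Slc7a1, the arginine importer, by 0.59 and 0.67 (adjusted p = 1.76e-09 and 1.44e-05). In the authors' normalized probe table Slc7a1 rose by 0.088 and 0.10, still past the test (adjusted p = 2.25e-06 and 0.000559).

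Of 15 genes of anaplerosis, cataplerosis and gluconeogenesis, 4 rose and 8 fell with manganese, and 4 rose and 7 fell with the alloy (4 and 6 without alloy replicates 1, 3 and 4). Of all tested genes 28.9% rose and 30.7% fell with manganese and 22.7% rose and 25.2% fell with the alloy, so the counts that rose were near background. Slc25a1, the mitochondrial citrate exporter, fell by 0.92 and by 1.06 (adjusted p = 6.22e-11 and 5.70e-07), and Slc25a10, the dicarboxylate carrier, fell by 0.73 and by 0.94 (adjusted p = 4.10e-10 and 9.86e-05). In the authors' normalized probe table Slc25a1 fell by 0.57 and by 0.64, and Slc25a10 by 0.40 and by 0.48. Hlcs, which attaches the biotin that Pcx needs, differed by -0.01 with manganese and -0.12 with the alloy and passed neither test. Between alloy and manganese 1 gene of all 82 was higher and 1 lower.

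For each tested member, the 2 genes with the most similar level over the 24 arrays are given as a description; the arrays share their groups, so a correlation mostly follows the group means. B4galt1 was nearest to Tex10 (Pearson r = 0.94) and Get3 (0.94), Ogt to Zfp518b (0.89) and Fcho2 (0.89), and Pcx to Rb1 (0.86) and Creb3l2 (0.83). Mgat1 was nearest to Tbc1d25 (0.76) and Dync1h1 (0.76), Arg1 to Cog8 (0.74) and Copa (0.71), and B4galt5 to Rnf114 (0.65) and Ifitm1 (0.62). Tex10 rose by 0.36 with manganese and by 0.57 with the alloy, and Zfp518b differed by 0.02 and -0.23, which are the patterns of B4galt1 and of the 3 falling Ogt probes.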

How the data were processed

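RNA of the cells was measured on Illumina mouse bead arrays. Per the file headers, the authors deposited a non-normalized probe table and a non-normalized gene table that hold intensity (linear), and normalized tables that hold log2 values; the series matrix equals the normalized probe table. Averaging the probes of a symbol gave the gene table's values. Of tools, lumi and RMA are listed in the submitters' processing notes, without version or role; a genome build is not given in the sources used here. No detection p-values were used: in place of the planned filter, a probe counted as above background where its log2 intensity exceeded the array's mode by the normal quantile leaving 1% above, scaled by the spread below the mode. How far this threshold matches a detection p-value was not tested.

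Probe intensities of 45281 probes were corrected with normexp (offset 50), quantile normalized and taken to log2. The 20943 probes that passed background on 6 or more of the 24 arrays entered, and the brightest per gene gave 13867 genes, 3043 of them named by the array's own symbol alone. Probe identifiers of the 2 probe tables were matched within a symbol by ranks over arrays. Each comparison was fitted on its own 2 groups with limma 3.58.1 in R 4.3.3 (lmFit, eBayes, two-sided, Benjamini-Hochberg over all genes, threshold 0.05), since the alloy group spread more; the fit was tested on simulated data. Probe differences were tested by exact permutation over arrays. Python 3.11.15, NumPy 2.4.6, pandas 2.3.3 and Matplotlib 3.10.9 did the rest. Precision is limited by having 6 arrays a group.

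The members, the lists and the tests were chosen with earlier results of these data known. Named were all members with every probe, from each list the 2 genes with the widest change among those called with manganese or alloy (all tested genes of lists of 5 or fewer), and for each tested member the 2 nearest genes by correlation; Oga, Hlcs and the genes of the likeness list with changes were named besides, after their values were seen. Alternatives were other scalings, background correction and filters, the mean of probes, the authors' tables, 1 model of all arrays, array weights, a replicate block and leaving out arrays; the fits of single probes were added after seeing the data. Protein sequences were not analysed here.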

Additional observations from a re-analysis of the deposited data

Results flagged for a closer look

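Of 48 groups checked (12 member probes above background in 4 groups of 6 arrays), 3 had 1 array far from the other 5 by Dixon's test, and chance marks about 1 group in 20. In control, replicate 2 was the highest for Arg1 at a log2 level of 6.51, with the next array at 6.45, and for Mgat1 at 7.99, with the next at 7.80. For the dimmer B4galt1 probe (ILMN_2667369), alloy replicate 4 was the highest at 6.78, with the next at 6.65. This held only after normalisation: its non-normalized intensity, 79.6, was the lowest of the 6 alloy arrays.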

How the results depend on the processing

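Of 608 member values under an alternative, 599 kept their side of the threshold, 2 lost it and 7 gained it, and 0 called values turned sign; 44 uncalled values did. The 3 members called with manganese held in all but 1 alternative: without normalisation between arrays B4galt5 was lost. With the alloy, 1 member was called in place of 2 with the mean of probes, and 3 without alloy replicates 1, 3 and 4 (Pcx besides). The share of all genes that fell or rose in the last of these fits is not given here. Between alloy and manganese, 1 was called in place of 0 (Ogt) with the mean of probes, with all 24 arrays in 1 model, with array weights and without alloy replicates 1, 3 and 4; leaving out single arrays gave 0 to 1, the 1 being without alloy replicate 3. The cause of these changes was not tested.

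The share of all tested genes that were called moved as follows. With iron it was 2.24%, 1.04% with median scaling, 1.12% without normalisation, 1.02% without the filter on dim probes (which adds genes), 3.45% in the authors' normalized gene table, 0.238% in 1 model of all arrays and 0.88% to 2.57% without single arrays; it was 0.88%, 1.25% and 1.33% without iron replicates 6, 5 and 3 and 1.03% without control replicate 4. Between alloy and manganese it was 3.96%, 0.231% with median scaling, 0.123% without normalisation, 1.66% without the filter, 14.4% in 1 model, 11.2% with array weights, 9.94% without alloy replicates 1, 3 and 4 and 1.23% to 6.29% without single arrays: 2.12%, 2.15% and 6.29% without alloy replicates 1, 2 and 5, and 1.23% to 1.66% without manganese replicates 2 to 6. Without the filter it was 30.5% with manganese (59.6% with it) and 23.8% with the alloy (47.9%). With a replicate block it was 3.37% for iron and 2.54% for alloy against manganese, and no count of called members changed. Same-numbered arrays correlated in their deviations by -0.10 to 0.20 (alloy and control), -0.19 to 0.25 (alloy and manganese), -0.0027 to 0.34 (iron and control) and -0.16 to 0.18 (manganese and control). Of 6 pairs each, 1, 1, 4 and 2 were over 0.1, and 1, 1, 3 and 4 arrays correlated best with their own number; since not every pair was over 0.1, the numbers were not taken as pairing.

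Without normalisation the median of all genes shifted by -0.12 log2 with the alloy; relative to it the member changes kept the signs reported as called. Of 27 called values of genes named from the lists, 25 passed in every alternative run for them, and those of B4galt7 with manganese (adjusted p up to 0.164) and B4galt3 with the alloy (up to 0.0573) did not. Arg1 and B4galt5 lay near background, which limits how small a change could be measured.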
